A study of Mus musculus with 8 samples.

Results

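The cells described here are lymphoid cells that carried transcripts of the T cell receptor beta constant genes and of CD3, and none of 4 genes that mark other cells. They came from newborn and fetal mouse tissue sorted for EPCR, Sca-1 and Kit and against lineage markers, a phenotype of hematopoietic stem cells. Cells were kept with at least 1000 genes, at least 2000 unique molecular identifiers (UMIs, each 1 captured RNA molecule) and at most 10% mitochondrial UMIs. Members were selected on measured UMIs: a kept cell was a member when it had at least 1 UMI of Trbc1 or Trbc2, at least 1 of Cd3d, Cd3e or Cd3g, and 0 of Gzma, Gzmb, Cd79a and Elane. The last 4 genes encode granzymes A and B, a B cell receptor chain and neutrophil elastase. In all, 428 of 31952 kept cells in 4 libraries were members, and the series held 37147 kept cells in 6 libraries.

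Each library was a single 10x reaction. The liver, spleen and bone marrow libraries came from wild-type mice 2 days after birth (P2), merged from 7 animals, and are batch 1 in the labels. The E19 library (about 19 days after fertilization, wild type, batch 2) is titled bone marrow but has fetal liver as its tissue. All were enriched for c-Kit and sorted with antibodies to CD117, Sca-1, EPCR and a lineage cocktail whose antigens the labels do not list. A further pair of tubes held pooled bone marrow and spleen cells of 2 Tppp3CreER LSLTdTomato P2 pups given tamoxifen at P0 (batch 3). With 1 library per tissue and merged animals there was no replicate, so no test was made. Exact 95% intervals cover counting error only, and tissue cannot be told apart from library.

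T cells recognise antigen through a receptor of paired alpha and beta or gamma and delta chains, which signals through the CD3 gamma, delta and epsilon chains and the zeta chain encoded by Cd247. Most T cells mature in the thymus and then leave for the spleen and lymph nodes, which in the mouse are being filled around birth. Innate lymphoid cells (ILCs) and their precursors use many of the same transcription factors but make no rearranged receptor, and transcripts from unrearranged receptor constant genes and CD3 genes are known in such cells.

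The spleen held most of the members. There were 34 members among 5634 kept cells of P2 liver (0.604%, interval 0.418% to 0.842%), 365 of 9043 in P2 spleen (4.04%, 3.64% to 4.46%), 26 of 6550 in P2 bone marrow (0.397%, 0.260% to 0.581%) and 3 of 10725 at E19 (0.0280%, 0.00577% to 0.0817%). With each cell thinned to 2500 UMIs before the rule was applied, the shares were 0.602% in liver, 3.20% in spleen, 0.253% in marrow and 0.0188% at E19. Thinning left out 481 liver, 576 spleen, 214 marrow and 73 E19 cells. The spleen interval lay above the other 3 in both cases, those of liver and marrow overlapped, and E19 lay below all 3 P2 libraries. Without the 4 exclusion genes in the rule the order of the first 2 turned, to 6.57% in liver, 5.31% in spleen and 0.657% in marrow. These counts follow from the rule and are given as a description. The barcode lists of the 4 libraries shared 145 barcodes over all pairs. The barcodes of 3 members were among them, and none was a member in 2 libraries.

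**Figure D1:**
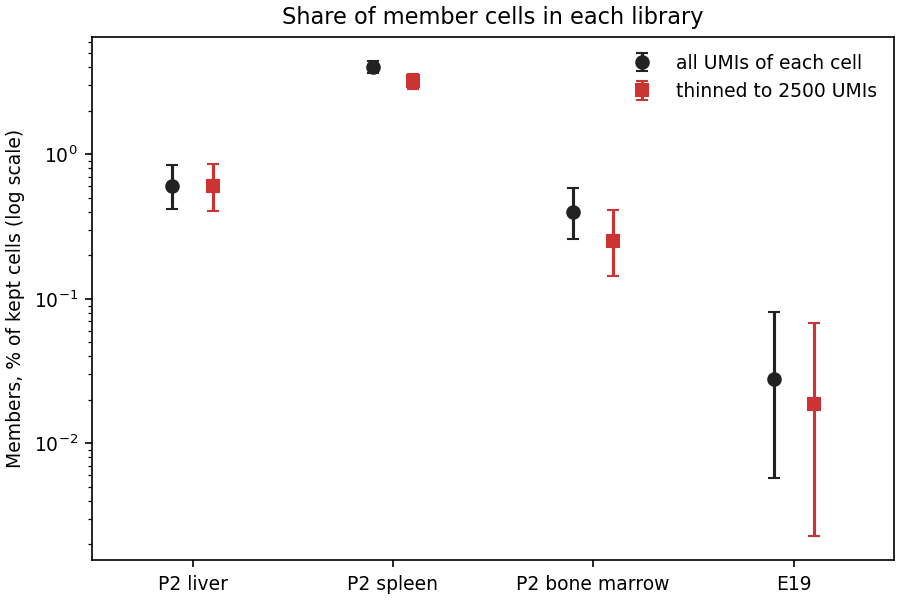
Members as a percentage of kept cells (log scale) in P2 liver, P2 spleen, P2 bone marrow and E19, with all UMIs (circles) and after thinning to 2500 UMIs (squares); bars are exact 95% binomial intervals. Spleen stands at 4.04% and 3.20%, and E19 at 0.0280% and 0.0188%.

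Members were shallower than the cells around them. Their median was 5531.5 UMIs in liver (other kept cells 8214.5), 3163 in spleen (7660.5), 5122 in marrow (8294) and 6289 at E19 (6523). The cell filter removed a further 54 spleen barcodes that met the marker rule, 50 of them for too few UMIs, against 3 in liver, 3 in marrow and 0 at E19. The median spleen member thus lay closest to the 2000 UMI minimum.

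Free RNA and doublets also bear on the counts. Kept cells with a UMI of Cd79a, a B lineage gene, and none of Gzma or Gzmb were taken for comparison. Trbc and Cd3 were seen together in 0.357% of 1680 such liver cells, 1.63% of 2209 spleen cells and 0.159% of 1258 marrow cells. Their median UMIs were 4264, 3869 and 5771.5. In cells with an Elane UMI and no Gzma or Gzmb UMI the shares were 0.989%, 1.16% and 0.52%, at medians of 17747.5, 15127 and 14994.5 UMIs. The Elane cells were deeper than members and the Cd79a cells closer to them in depth. The member shares of liver and marrow lay between the 2 levels, with intervals that overlapped both, so no frequency of T cells is read from them. The spleen share was above both levels. In liver, members had a median of 8.5 Trbc and 3 Cd3 UMIs, against 3 and 2 in the Elane cells that held both. In marrow the medians were 7.5 and 2 in members and 8.5 and 7.5 in such Elane cells, of which there were 8. In spleen the medians were 7 and 6 in members, 7 and 7 in such Elane cells and 6.5 and 5 in such Cd79a cells, so there the 3 kinds of cell were close. Scrublet scores (a doublet caller) marked 61 of the 428 members (14.3%), when between 5.49% and 9.06% of each library's barcodes were marked. No Gzma or Gzmb UMI was seen in 1680 of 2232 liver, 2209 of 2229 spleen and 1258 of 1261 marrow cells with Cd79a. The same held for 1516 of 2271, 1118 of 1138 and 1538 of 1539 cells with Elane. Granzyme UMIs in such cells were thus most common in liver, where the rule's 0 for Gzma and Gzmb can leave out more cells. The part of doublets and free RNA in the results was not tested, beyond leaving out the marked cells.

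Just inside the threshold, 3 marrow members, 4 spleen members and no liver member had exactly 1 Trbc and 1 Cd3 UMI. In those 3 marrow cells Bcl11b, Themis and Skap1 were at 0 CPM and Tox was at 3319 CPM, where CPM is a gene's UMIs summed over cells and scaled to a total of 1000000 UMIs. At least 2 UMIs of each kind were present in 21 liver, 326 spleen, 15 marrow and 2 E19 members. Just outside, cells with a Trbc but no Cd3 UMI numbered 436 in liver, 549 in spleen and 527 in marrow, and their Bcl11b level was 8.33, 9.89 and 4.48 CPM. Cells with Trbc and Cd3 that had a Gzma or Gzmb UMI and no Cd79a or Elane UMI, the cytotoxic counterpart, numbered 198 in liver, 59 in spleen and 6 in marrow. Granzyme UMIs were also common in liver cells with Cd79a or Elane, so the liver number is not read as a frequency of cytotoxic cells. Ccl5, a chemokine gene, was at 445 CPM in liver members and 10700 CPM in their cytotoxic counterpart, and at 248 and 1432 CPM in spleen. Tcf7, a transcription factor, was at 413 CPM in liver members and 33.2 CPM in the counterpart, and at 403 and 216 CPM in spleen.

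The label was checked against its 4 markers, 3 of which the rule used. Trbc2 was seen in 30 of 34 liver, 347 of 365 spleen and 20 of 26 marrow members, and Trbc1 in 28, 230 and 23. The coding sequences of both constant genes are nearly identical, and the split of reads between them was not checked. Skap1, an adaptor of T cell receptor signalling that the rule did not use, was seen in 28 liver (82.4%), 352 spleen (96.4%) and 16 marrow (61.5%) members, and in none of the 3 E19 members. Its level was 1050 CPM in liver members (other cells 26.4), 1108 CPM in spleen members (16.7) and 555 CPM in marrow members (8.90). The 3 E19 members also had no UMI of Cd3d, Cd3e, Trac, Themis or Lef1, so at E19 the label rests on Cd3g and the Trbc genes, both used by the rule.

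The split among the 3 CD3 genes is a description, since the rule used them, and a member with 1 CD3 UMI can show only 1 of the genes. Cd3g had 92 UMIs and Cd3d 61 in liver members, so Cd3g gave 60.1% (interval 51.9% to 67.9%) of the 2. In spleen members Cd3g had 930 and Cd3d 1043 UMIs (47.1%, 44.9% to 49.4%). In marrow members they had 56 and 32 (63.6%, 52.7% to 73.6%), and at E19 Cd3g had 8 and Cd3d 0. Cd3g was the only CD3 gene seen in 16 of 34 liver, 20 of 365 spleen, 15 of 26 marrow and all 3 E19 members. Cd3g and Cd3d lie next to each other on chromosome 9 and are transcribed away from each other, so the 2 start regions are shown. They are RefSeq promoter windows of 250 bases before and 50 after the gene start (build GRCm38.p6), Cd3g at chr9:44980382-44980681 on the minus strand and Cd3d at chr9:44981536-44981835 on the plus strand.
Cd3g promoter: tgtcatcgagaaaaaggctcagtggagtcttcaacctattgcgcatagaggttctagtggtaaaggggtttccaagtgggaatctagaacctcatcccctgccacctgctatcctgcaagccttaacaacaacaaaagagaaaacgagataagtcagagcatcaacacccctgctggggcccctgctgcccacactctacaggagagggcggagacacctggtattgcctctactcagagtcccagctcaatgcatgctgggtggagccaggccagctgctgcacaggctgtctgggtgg
Cd3d promoter: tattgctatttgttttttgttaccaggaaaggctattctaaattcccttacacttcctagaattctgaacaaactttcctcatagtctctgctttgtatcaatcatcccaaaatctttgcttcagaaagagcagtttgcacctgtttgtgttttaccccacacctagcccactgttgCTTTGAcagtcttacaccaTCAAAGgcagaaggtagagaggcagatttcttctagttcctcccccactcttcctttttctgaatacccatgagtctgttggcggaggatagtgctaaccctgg
Capitals mark CTTTGA, a core motif of the TCF and LEF factors, read on either strand. The Cd3d window held 2 such matches, which do not overlap, and the Cd3g window 0. Of 32851 windows of the same length, 5257 (16.0%) held at least 1. A match is a string of letters and was not linked to binding here.

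On build GRCm38 (GENCODE vM21), Cd3g spans chr9:44969572-44980431 and Cd3d chr9:44981786-44987339, Skap1 lies at chr11:96464593-96759130 and Trac at chr14:54220521-54224206.

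Members were next set against all other kept cells of the same library, with libraries weighted equally and E19 left out for its 3 members. A gene was called when its mean level over the 3 P2 libraries differed at least 2-fold and in the same direction in each library. Of 8867 genes tested outside the 9 rule genes, 832 were higher in members (9.38%) and 643 lower (7.25%). Higher genes made up 56.4% of the calls with scaling to total UMIs and 40.6% with TMM scaling, which moved the median log2 fold of all genes to -0.17 from 0.01. Without the spleen library 319 were higher and 187 lower, with fewer genes tested since it holds most members. The number of all genes tested in that setting is not given, so its list counts cannot be set against an overall share. The lists shrank with it: among those tested without spleen, 2 of 2 receptor chains, 9 of 9 receptor signalling genes, 12 of 13 lymphoid transcription factors, 3 of 3 cytokine receptors and 2 of 4 homing receptors were higher, and 4 of 5 B cell and 6 of 6 erythroid genes were lower.

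Receptor chains and proximal signalling genes were high in members of all 3 tissues. The 5 CD3 and receptor chain genes that could be tested, Cd247, Trac, Trdc, Tcrg-C1 and Tcrg-C4, were all higher (median log2 fold 6.64, against 0.01 over all genes tested). The genes share the choice of cells by Trbc and Cd3, so this count is a description only. Trac, the alpha chain constant gene, stood at 122 CPM in liver members (other cells 0.609), 295 CPM in spleen members (1.77) and 124 CPM in marrow members (0.279). Members exceeded other cells in each library, and their mean level over the libraries was 203-fold the mean level of other cells. Trdc, the delta constant gene, was at 56.3 CPM in liver members, 45.5 CPM in spleen members and 58.8 CPM in marrow members, from 5, 35 and 4 cells.

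Of 16 genes of receptor signalling tested, 15 were higher and none lower, with a median log2 fold of 4.67 against 0.01 over all genes. Lck, the kinase that phosphorylates CD3, was at 234 CPM in liver members (other cells 10.4), 295 CPM in spleen members (9.32) and 176 CPM in marrow members (7.08). Themis, needed for thymocyte selection, was at 300, 494 and 359 CPM in members and at 2.34, 3.12 and 0.434 CPM in other cells. Ubash3a, a phosphatase that dampens receptor signals, was the 1 gene of the list not called: 46.9, 64.3 and 19.6 CPM in members, against 30.0, 24.2 and 30.4 CPM in other cells.

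**Figure D2:**
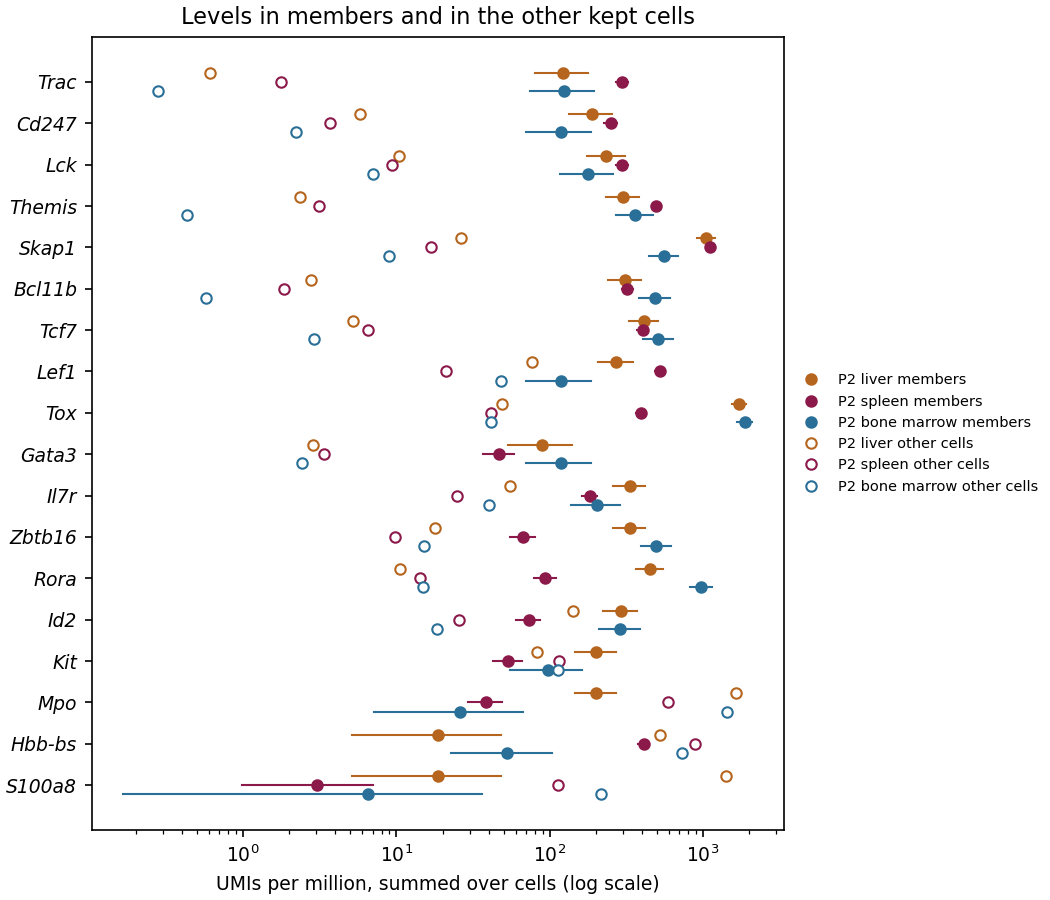
Level in members (filled, with exact 95% Poisson intervals) and in other kept cells (open) of P2 liver, P2 spleen and P2 bone marrow for 18 genes; the horizontal axis is CPM on a log scale. Trac, Themis and Bcl11b stand far to the right in members of each tissue, while Tox, Zbtb16 and Rora are lower in spleen members than in liver and marrow members.

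Transcription factors of T cells and ILCs were high in members too. Of 24 listed, 22 were tested, and 19 were higher and none lower (median log2 fold 3.02). Bcl11b, which fixes T lineage identity and also acts in ILC2s, was at 309 CPM in liver members (other cells 2.79), 321 CPM in spleen members (1.86) and 484 CPM in marrow members (0.573). Tcf7, an early factor of T cells and ILC precursors, was at 413, 403 and 510 CPM in members and at 5.19, 6.51 and 2.90 CPM in other cells. Its level was thus close among the 3 tissues, and their intervals overlapped. Runx1, Id3 and Batf were tested and not called. All 12 genes of the ILC precursor list were higher (median log2 fold 4.03), a list that shares Tcf7, Tox and Il7r with T cells. All 5 ILC2 genes tested were higher, and so were 4 of 7 of the ILC3 list and 9 of 11 of the ILC1 and NK list. Among members with at least 2 Trbc and 2 Cd3 UMIs, 2 of 4 ILC2, 1 of 5 ILC3 and 7 of 9 ILC1 and NK genes were higher. With the marked doublets removed these were 5 of 5, 2 of 4 and 5 of 7, and without liver 4 of 4, 2 of 4 and 5 of 6. Without marrow 2 of 5 ILC3 genes were higher, and without spleen 1 of 1, 1 of 2 and 2 of 4 of the 3 lists.

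Other groups were mixed. Of 10 cytokine receptors tested, 8 were higher and none lower; Il7r, the interleukin-7 receptor that lymphocytes need to survive, was at 333 CPM in liver members (other cells 55.2), 182 CPM in spleen members (25.0) and 203 CPM in marrow members (40.4). Of 11 homing receptors tested, 7 were higher. Of the gamma-delta list, 5 of 6 were higher, and Blk, a Src family kinase shared with B cells, was lower. Among 17 cytokines and effector products only 5 could be tested, and all 5 were higher: Tnf, Ltb, Tnfsf11, Xcl1 and Ccl5. Without liver, or without spleen, 2 could be tested and both were higher. Of the 17, 9 had no UMI in liver members, 7 none in spleen members and 11 none in marrow members. Of the cytotoxic granule list, Nkg7 and Ctsw were higher, Srgn was not called, and Prf1, the gene for perforin, had UMIs in 0 liver, 5 spleen and 1 marrow members.

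The 20 called genes with the highest fold were led by Cd163l1, a scavenger receptor gene known from gamma-delta T cells (306-fold), then Bcl11b (214-fold), Trac, Themis, Rxrg (195-fold) and Cd8b1 (168-fold). The others were Gm44174, A630014C17Rik, 1700113H08Rik, Gm39323, Tox2, Tcrg-C4, Camk4, Trdc, Gm4208, Tcf7, Cd8a, Trat1, Slfn1 and Ms4a4b. Cd163l1 was at 145 CPM in liver members, 67.3 CPM in spleen members and 137 CPM in marrow members, from 5, 54 and 4 cells, and at most 0.711 CPM in other cells. Several of these folds thus rest on few cells in liver and marrow. Rxrg had UMIs in 2 liver, 5 spleen and 7 marrow members. Cd163l1 was not particular to members with Trdc. Among the clusters of members described below, it was seen in 22 cells of cluster 3, which was led by Cd8b1, and Trdc in 2. In cluster 6 it was seen in 11 cells and Trdc in 20.

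Genes of other lineages were lower in members. This held for 7 of 8 B cell genes tested (median log2 fold -4.79), 6 of 7 myeloid progenitor and monocyte genes (-3.79), all 4 neutrophil genes (-5.70; 2 of 2 tested without liver), all 10 erythroid genes (-2.19) and 5 of 6 dendritic cell genes (-3.32). Mpo, the granule peroxidase of myeloid cells, was at 202 CPM in liver members (other cells 1641), 38.2 CPM in spleen members (591) and 26.1 CPM in marrow members (1442). A single liver member gave 34 of the 43 Mpo UMIs. The 10 lowest called genes were Cstdc4, Cebpe, Gda, Prg2, Iglc2, Trem3, Ms4a3, S100a9, Vpreb1 and Stfa1, which mark granulocyte, monocyte and B lineage cells. The exclusion of Elane and Cd79a by the rule removes cells of those lineages, so this direction was set in part by the rule. In the 1 platelet gene tested, Pf4, members were lower, and no hepatocyte gene had enough UMIs to be tested.

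Of the genes for the sort antigens, Kit and Ly6a were tested against other cells and not called. Procr, which encodes EPCR, had no UMI in the 34 liver and 26 marrow members and was seen in 4 of 365 spleen members. All 4 lay in a cluster of members with stem cell genes, described with the other clusters. Among the other kept cells Procr was itself low, at 1.55, 6.08 and 6.84 CPM in liver, spleen and marrow. Kit was at 202 CPM in liver members (other cells 82.0), 53.4 CPM in spleen members (114) and 98.0 CPM in marrow members (112). Of the 9 stem cell genes tested, 1 was higher, Mllt3, and 3 were lower, Mecom and Gata2 among them (median log2 fold -0.83). Without liver none was higher and 7 of 9 were lower (-1.49), without spleen 1 of 5 was lower, with the marked doublets removed 1 of 7 was lower, and with at least 2 Trbc and 2 Cd3 UMIs 5 of 6 were lower.

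Members of the tissues were then compared with each other. In the spleen over marrow contrast, genes were called at 2-fold with exact 95% Poisson intervals of the 2 tissues apart. Of 2862 genes tested, 106 were higher in spleen members (3.7%) and 148 lower (5.17%), 8.87% in either direction. Higher genes were 41.7% of these calls, and 62.9% with TMM scaling, which moved the median log2 fold of all genes to 0.11 from -0.13. The 2 tissue contrasts share the marrow members as their base.

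Genes of mature alpha-beta T cells were higher in spleen members. Of 7 tested, 6 were higher than in marrow members and none lower: Trac, Cd8a, Cd8b1, Cd5, Lef1 and Ccr7. With a minimum of 20 expected UMIs 4 were tested and 3 higher, and Cd5, Ccr7, Cd8a and S1pr1 could not be tested. Cd5, which tunes receptor signals, was at 141 CPM in spleen members (interval 124 to 161) and 13.1 CPM in marrow members (1.58 to 47.2). S1pr1, the receptor by which T cells leave the thymus, was at 148 CPM in spleen members (156 of 365 cells) and 6.53 CPM in marrow members (1 of 26 cells). Ccr7, the lymph node homing receptor, was at 113 CPM in spleen members and 19.6 CPM in marrow members. Lef1, a partner of Tcf7 in T cell development, was at 523 CPM in spleen members (489 to 559) and 118 CPM in marrow members (69.7 to 186). The 8 called genes with the highest fold were S1pr1, Cd5, Id3, Hbb-bs, Hba-a1, Ccr7, Gramd3 and Mt1. Hbb-bs and Hba-a1, which are hemoglobin genes, turned in sign without the cells that Scrublet marked, and 280 of 674 spleen Hbb-bs UMIs came from 1 cell. Mt1 turned too, and rested on 34 spleen cells and 1 marrow cell.

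Genes of ILC precursors ran the other way. Of 9 tested, 5 were lower in spleen members than in marrow members and none higher: Zbtb16, Id2, Tox, Tox2 and Il18r1. At 20 expected UMIs 3 of 6 were lower, without Tox2 and Il18r1, and with the marked doublets removed 4 of 8 were lower and 1 higher. Zbtb16, which encodes PLZF, a factor of ILC precursors and innate-like T cells, was at 66.7 CPM in spleen members (54.8 to 80.4) and 497 CPM in marrow members (391 to 622). Rora, needed for ILC2s, was at 93.4 CPM in spleen members (79.3 to 109) and 967 CPM in marrow members (818 to 1136). Tox, an early factor of T cells and ILCs, was at 396 CPM in spleen members and 1862 CPM in marrow members. Of the lymphoid-primed progenitor genes, Flt3, Ly6d and Mef2c were lower among 6 tested, and 1 of 3 at 20 expected UMIs. The 8 lowest called genes were Ly6d, Arpp21, Cpa3, H19, Rxrg, 5830418P13Rik, Tox2 and Syk. Ly6d came from 3 marrow members, and 24 of its 36 UMIs from 1 of them; Cpa3, a mast cell protease gene, came from 8 marrow members.

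Fewer genes were called between liver and marrow members. Liver members held 213299 UMIs and spleen members 1648386, so intervals were wider in liver and a call was harder to reach. The numbers of calls thus do not show which tissues were more alike. Of 3022 genes tested between liver and marrow members, 61 were higher in liver members (2.02%) and 22 lower (0.728%), 2.75% in either direction. None of the ILC precursor genes was called. Tox was at 1707 CPM in liver members, near the marrow level, and Zbtb16 at 333 CPM (260 to 420), with an interval that met that of marrow. Rora was called lower, at 450 CPM in liver members (365 to 550). Lef1 was called higher, at 272 CPM in liver members (206 to 352). Klrd1 and Xcl1 of the ILC1 and NK list were higher too; Xcl1 came from 6 liver members, 16 of its 27 UMIs from 1 of them. The 8 highest called genes were Igf2, Xcl1, Fam155a, Mpo, Eefsec, Ptprj, Camkmt and Kdm2b, whose fold Gramd3 shared. Igf2 and Fam155a came from 2 liver members each. The 8 lowest were Cpa3, H19, Rxrg, 5830418P13Rik, Pde4d, Gm16286, Ptov1 and Ttc7.

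**Figure D3:**
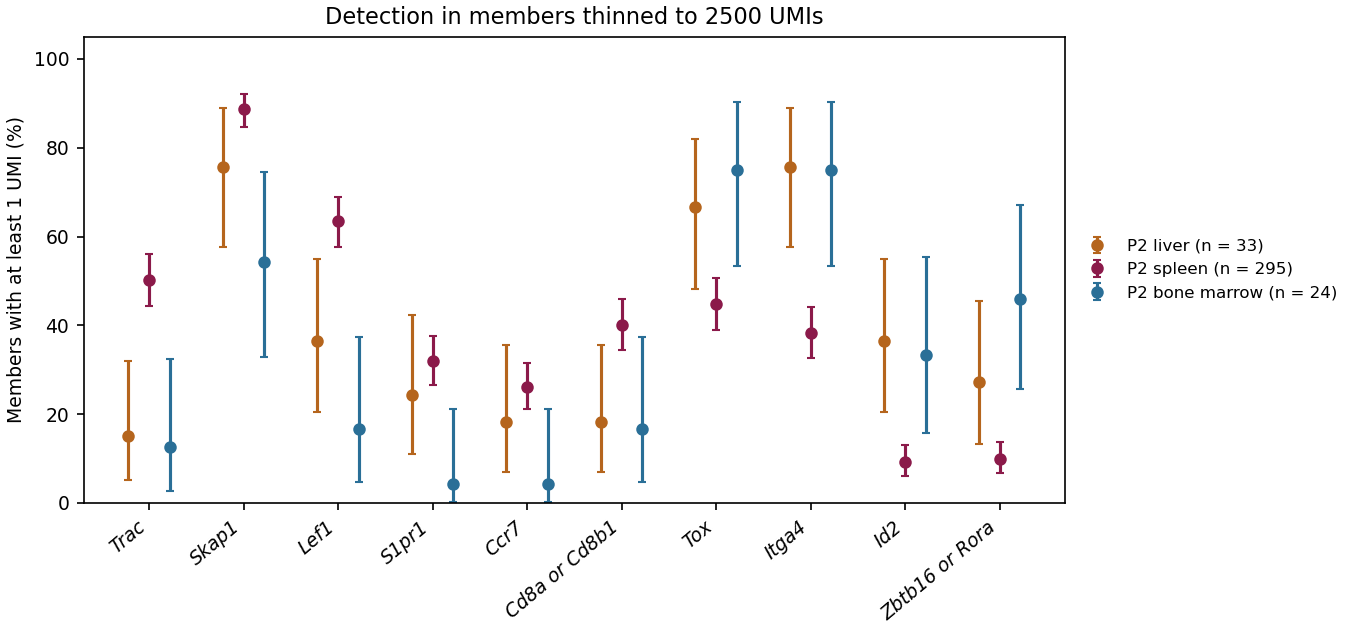
Percentage of members with at least 1 UMI of each gene after thinning every member to 2500 UMIs, in P2 liver (33 cells), P2 spleen (295) and P2 bone marrow (24), with exact 95% binomial intervals. Trac and Lef1 are highest in spleen; Itga4, Id2 and Zbtb16 or Rora are lowest there.

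Detection was also compared at equal depth, for genes that the rule did not use. With members thinned to 2500 UMIs, Trac was seen in 5 of 33 liver members (15.2%), 148 of 295 spleen members (50.2%) and 3 of 24 marrow members (12.5%). Unthinned, it was seen in 26.5%, 61.6% and 23.1%. Zbtb16 or Rora was seen in 9 of 33 liver members (27.3%), 29 of 295 spleen members (9.83%) and 11 of 24 marrow members (45.8%), and unthinned in 12 of 34, 37 of 365 and 13 of 26. The spleen interval for Trac (44.3% to 56.0%) lay above those of liver (5.11% to 31.9%) and marrow (2.66% to 32.4%). Itga4, an integrin chain that also marks progenitors, was seen in 75.8%, 38.3% and 75.0%. A UMI of Cd8a or Cd8b1 was found in 6 liver, 118 spleen and 4 marrow members at this depth, and of Cd4 in 3, 43 and 0. Both were found in 2 spleen members.

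Ptcra, Rag1 and Rag2, genes of developing thymocytes, were seen in few members. Of the 9 genes of the thymocyte and pre-TCR list, 4 were tested against other kept cells. Cd8b1 and Themis, which are also on the alpha-beta list, were higher, and Dntt and Arpp21 were not called. Ptcra, the pre-T cell receptor chain, was seen in 1 spleen member and in none of liver, marrow or E19, without thinning. Rag1 or Rag2 was seen in 1 liver, 3 spleen and 2 marrow members. Foxp3, the factor of regulatory T cells, was seen in 8 spleen members and in no others of the 4 libraries. Mki67 or Top2a, which mark cycling cells, was seen in 13 liver, 129 spleen and 17 marrow members. Of 20 S phase genes tested, 5 were lower than in other cells and none higher (median log2 fold -0.75), and of 20 G2/M genes 4 were lower and none higher (-0.63). With clusters 4, 5 and 10 left out, 12 of each were lower. With the marked doublets removed the counts were 11 and 5, and with at least 2 Trbc and 2 Cd3 UMIs they were 8 and 11. Without liver 4 S phase and 2 G2/M genes were lower.

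Members were split by Trac and by the factors Zbtb16 or Rora. Trac without either factor was seen in 9 liver, 216 spleen and 5 marrow members, and either factor without Trac (factor-positive) in 12, 28 and 12. Both were seen in 0, 9 and 1, so Trac was present in 0 of 12 liver, 9 of 37 spleen and 1 of 13 marrow members with a factor. Whether they coincided less often than their detection rates give was not tested. Cells with neither numbered 13, 112 and 8, with medians of 3843, 2940.5 and 5259.5 UMIs. The split uses these genes, so only other genes that neither it nor the rule used are described across it. Of the factor-positive members, Scrublet marked 4 in liver, 8 in spleen and 3 in marrow.

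Lef1, Lmo4, Skap1, Tox, Itga4, Satb1 and Cd8b1 differed between the 2 kinds of member with intervals apart in each of the 3 tissues. Skap1, a label marker, was at 487 and 2355 CPM in liver, 844 and 1207 in spleen, and 523 and 1795 in marrow, factor-positive first. Id2, the repressor that ILCs require, was at 517 CPM in factor-positive and 44.0 CPM in Trac-positive members of liver, at 451 and 12.1 CPM in spleen, and at 443 and 138 CPM in marrow, where the intervals (305 to 622 and 28.5 to 404) overlapped. Lef1 was at 0 and 770 CPM in liver, 193 and 606 CPM in spleen, and 13.4 and 644 CPM in marrow, factor-positive members first. Lmo4, a LIM domain factor, was at 426 and 22.01 CPM in liver, 639 and 21.9 CPM in spleen, and 765 and 46.0 CPM in marrow. Cpa3 was high in factor-positive members of marrow only among the 3 tissues, at 859 CPM, against 10.1 CPM in liver and 87.9 CPM in spleen.

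**Figure D4:**
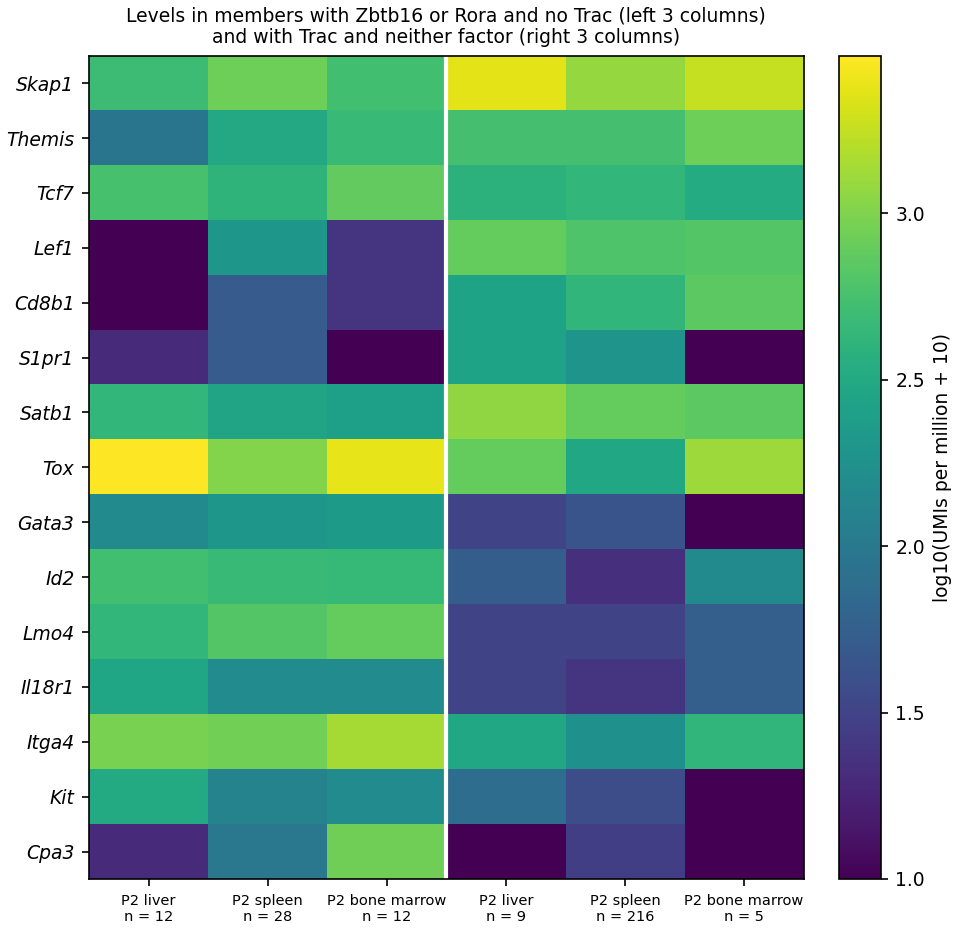
Level of 15 genes, as log10 of CPM plus 10, in members with a Zbtb16 or Rora UMI and no Trac UMI (left 3 columns) and with Trac and neither factor (right 3 columns) in P2 liver, P2 spleen and P2 bone marrow, with cell numbers under each column. Id2, Lmo4 and Tox are high on the left, and Lef1 and Cd8b1 are high on the right.

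The 3 E19 members were all factor-positive. Zbtb16, Rora, Tox, Itga4, Satb1 and Kit were each seen in 3 of 3, with 25 Zbtb16, 27 Rora and 35 Tox UMIs in all. Gata3, Id2, Il7r and Tcf7 were seen in 2 of 3. A gene at 0 of 3 cells has an interval up to 70.8%.

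Clustering of members alone gave 11 clusters, which are described by their leading genes and not named. They were found from 1000 variable genes of the same cells, so no difference between clusters is a test. Genes of a list were counted from 10 CPM. The share of all genes at least 2-fold above other members is not given, so list counts are descriptions only. Clusters 3, 8, 9 and 11 held 257 members, 12 of 34 in liver, 241 of 365 in spleen and 4 of 26 in marrow. Cluster 3 (86 cells) was led by Cd8b1 (1228 CPM, in 80 cells), Cd8a and Itgae. Cluster 8 (86 cells) had Cd4 (225 CPM, in 39 cells), Dapl1 and S1pr1 among its leading genes and no member marked by Scrublet. Cluster 9 (53 cells) had Cd4, Egr1 and Igfbp4 beside hemoglobin genes that came from 5 cells or fewer. Cluster 11 (32 cells, all of spleen) was led by Foxp3 (173 CPM, in 8 cells) and Il2ra, the alpha chain of the interleukin-2 receptor (in 7 cells).

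Clusters 1 and 2 held 13 of 34 liver members (38.2%), 16 of 365 spleen members (4.38%), 14 of 26 marrow members (53.8%) and the 3 E19 members. Cluster 1 (17 cells) was led by Arg1, Adam12, Rxrg, Tox2, Lmo4 (1914 CPM, in 15 cells) and Rora (2910 CPM, in 15 cells), besides Igf2 and Stab2 from 3 and 4 cells. It had at least 2-fold more than other members of 9 of 13 ILC2, 9 of 14 ILC3 and 9 of 12 ILC precursor genes. The same held for 6 of 9 gamma-delta T cell, 3 of 9 B cell, 3 of 6 platelet and 2 of 5 hepatocyte genes. It held for 0 of 12 alpha-beta T cell, 0 of 12 stem cell and 0 of 10 erythroid genes. In this cluster 1 UMI was 11.07 CPM, enough to be counted. The lists thus did not tell the ILC types apart from each other or from gamma-delta T cells. Cluster 2 (29 cells) had 2610307P16Rik (in 27 cells), Cpa3 (12), Cdkn1a (10), Arpp21 (9) and Ly6d (5) among its leading genes. Of the lymphoid-primed progenitor list 6 of 11 genes were at least 2-fold above other members, with Rag1 and Dntt from 3 cells each. So were 5 of 14 ILC3 and 4 of 12 ILC precursor genes. Scrublet marked 6 cells of cluster 2. Its cells had a Tox level of 2807 CPM (26 cells), Cd3g in 28 cells, Cd3d in 2 and Trac in 1.

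Cluster 6 (31 cells) was led by Ccl5 (3485 CPM, in all 31), Klrd1 (840 CPM, in 28), Il2rb, Xcl1 and Trdc (382 CPM, in 20), with 12 of 14 ILC1 and NK genes at least 2-fold above other members. It lay in all 3 P2 tissues, with 4 liver, 25 spleen and 2 marrow members. Cluster 7 (45 cells) was led by mitotic and histone genes and had all 20 G2/M genes at least 2-fold above other members. Clusters 4, 5 and 10 held 49 members, 3 of liver, 43 of spleen and 3 of marrow, and Scrublet marked 41 of them. Cluster 4 had 9 of 12 stem cell genes at least 2-fold above other members, cluster 5 all 10 erythroid genes, and cluster 10 had 11 of 12 stem cell genes, with its MHC class II UMIs from 4 cells or fewer. Their median UMIs were 11567.5, 16680 and 8217, and Trbc2 was seen in 16, 15 and 16 of their 18, 15 and 16 cells.

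**Figure D5:**
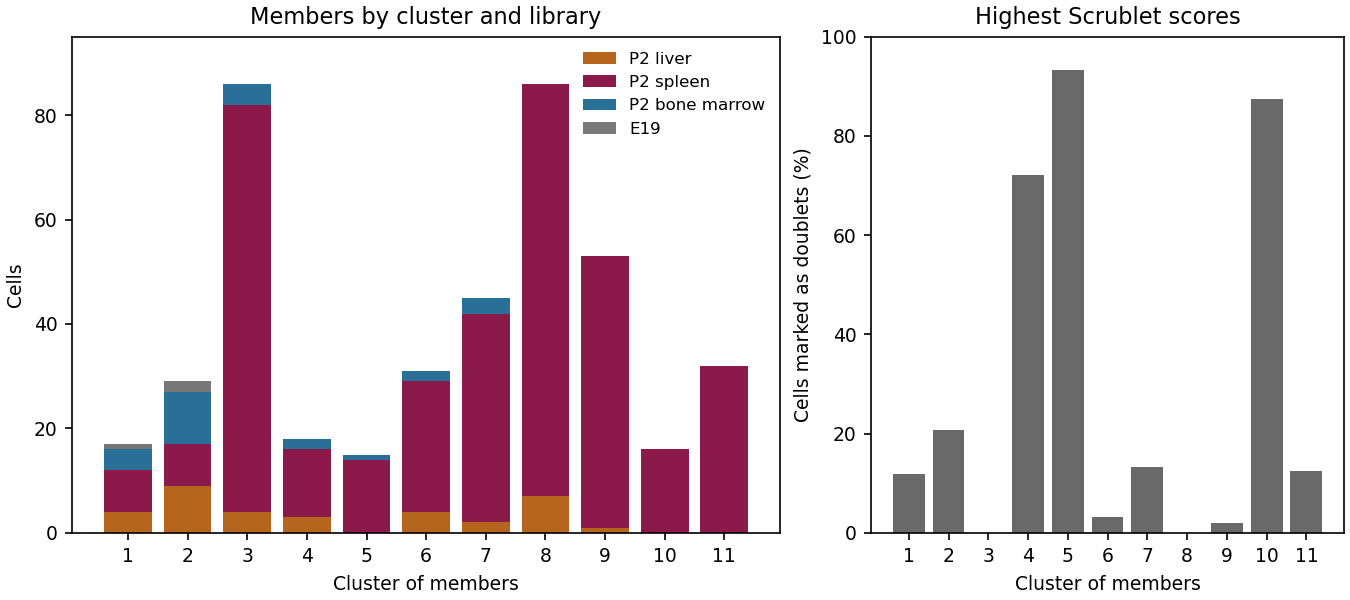
Left, number of members in each of 11 clusters, stacked by library (P2 liver, P2 spleen, P2 bone marrow, E19); right, percentage of each cluster's cells among the highest Scrublet scores. Clusters 1 and 2 hold most marrow members, and clusters 4, 5 and 10 have 72.2%, 93.3% and 87.5% of cells marked.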

How the data were processed

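Single-cell RNA was measured with 10x 3' v3 chemistry. The deposited values are UMI counts per gene and barcode, made by the authors with Cell Ranger 7.0.0 on mm10 per the submitters' processing notes; the file headers give 7.0.0 for the P2 libraries, 7.1.0 for E19 and 8.0.1 for the pup tubes. Barcodes numbered 6867 to 11323 per library of the 4 used. Cells were filtered and members chosen as in the report. UMIs were summed per library over members and over other kept cells and scaled to CPM. Genes were tested with at least 20 UMIs expected in members, or at least 10 in the smaller tissue; the 10 was set after the files were seen. A fold against 0 used a floor of 3 counts. Intervals are exact binomial for shares and exact Poisson for CPM, at 95%; they cover counting error only. With 1 library a group no p-value was computed. Doublets were scored with Scrublet in scanpy 1.11.5, marking 0.8% of barcodes per 1000 barcodes, and were kept in the reported values; members were clustered with Leiden (1000 variable genes, 15 components, 10 neighbours, resolution 1, seed 1). Python 3.11.15, numpy 2.4.6, scipy 1.17.1, igraph 0.11.9, matplotlib 3.10.9, R 4.3.3 and edgeR 4.0.16 (TMM factors only) were used. The scripts were tested on simulated data. Genes were named by list, by the 20 highest and 10 lowest folds against other cells, the 8 highest and 8 lowest in each tissue contrast, and the 10 leading genes of a cluster. Named outside this rule, with values known, were Batf, Cd247, Flt3, Gata2, Id2, Lck, Ptcra, Rag1, Rag2, Tcrg-C1, Tnfsf11 and Ubash3a. The members and the 27 gene lists were chosen with earlier results of these data known. Alternatives were other scalings, filters, thresholds, doublet removal, thinning and leaving out each library. The pup tubes were only counted, and the hashtag samples were not used here.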

Additional observations from a re-analysis of the deposited data

Results flagged for a closer look

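The rule also found members in one of the pup tubes, which no comparison used: 11 of 2473 kept cells (0.445%, interval 0.222% to 0.794%) in tube 2, above the 0.121% that a count of 0 allows. Summed levels of 4 gene lists lay above other cells in one tissue and below in another; none of these differences was tested. Stem cell genes summed to 1.71 times the other kept cells in liver members, 0.662 times in spleen members and 0.47 times in marrow members. Mast cell and basophil genes summed to 0.0932 times in liver members, 0.327 times in spleen members and 3.0 times in marrow members, where Cpa3 came from 8 cells and 30 of its 78 UMIs from 1 cell. The sort antigen genes summed to 2.49 times in liver members, 0.697 times in spleen members and 0.745 times in marrow members. Cytotoxic granule genes summed to 0.849 times in liver members, 1.14 times in spleen members and 0.886 times in marrow members. The rule took cells with Gzma or Gzmb out of the members and left them among the other kept cells. Those with Trbc and Cd3 numbered 321 in liver, 69 in spleen and 8 in marrow. The ratios of the granule list were thus set in part by the rule.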

How the results depend on the processing

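No paired analysis was possible because each tissue had 1 library. Of 460 values under alternatives, all of called genes with the highest or lowest folds, 455 kept their sign. Such folds are large by choice, so a kept sign says little. Of the 460, 127 kept their sign but left a counting interval around the reported value. Of 62 pairs of a gene and a comparison, 4 reversed. Without the marked doublets the spleen over marrow log2 folds of Hbb-bs, Hba-a1 and Mt1 were -0.20, -0.19 and -0.72, and without clusters 4, 5 and 10 those of Mt1 and, for liver over marrow, Fam155a were -0.61 and -1.49; the cause was not tested. Shares thinned to 2500 UMIs were 3.201% in spleen and 0.2525% in marrow, and at 5000 UMIs 0.3781% in liver, 1.365% in spleen and 0.2397% in marrow. With at least 2 Trbc and 2 Cd3 UMIs they were 0.3727%, 3.605% and 0.229%, and with no exclusion genes 6.567%, 5.308% and 0.6565%, in liver, spleen and marrow. Leaving out 1 library gave 319 to 950 higher and 187 to 688 lower genes in members against other cells, the lowest of each without spleen, where fewer genes are tested; with no filter 1892 were lower. Higher genes were 37.6% of calls with no filter and 42.2% with per-cell means, against 56.4% reported. At 20 expected UMIs, an alternative chosen after seeing the data, as was leaving out clusters, 34 genes were higher and 10 lower in liver over marrow members, and 60 higher and 49 lower in spleen over marrow members. With doublets removed 34 were lower in liver members, and under TMM 93 lower in spleen members. The numbers of genes tested under these alternatives are not given, so the counts cannot be read as shares. Detection of Zbtb16 or Rora at 5000 UMIs was 55.56% in liver and 18.6% in spleen. Detection of Cd3d, a gene of the rule, was 67.44% in spleen and 7.692% in marrow at 5000 UMIs, and 89.32% in spleen unthinned. Detection of Skap1 was 55.56% in liver and 30.77% in marrow at 5000 UMIs, and 96.44% in spleen unthinned. Detection of Trac in spleen was 61.64% unthinned. The stricter UMI rule left 15 marrow members, under the minimum of 20, so tissue contrasts were not run under it. Clusters numbered 9 at resolution 0.5 and 15 at resolution 2.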
